A study of Mus musculus with 24 samples.

Results

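The 47 genes described here drive cell division and DNA replication: 29 act in mitosis, 13 in DNA replication or nucleotide supply, and 5 regulate entry into the cycle or its transcription. They were taken by gene name from the array's own annotation, where all 47 were found among 29742 named genes. No measured value entered that rule, but the list was chosen with earlier results of these data known. Their transcripts were measured in whole blood of male C57BL/6J mice aged 2 months (young) or 21 months (old). Each age had 6 unirradiated mice and 6 mice exposed to a whole-body x-ray dose of 4 Gy, and blood was drawn from the heart 24 h later, so that there were 4 groups of 6 mice and 24 one-colour arrays, 1 per mouse. No transgene or gene deletion was involved. Globin transcripts were depleted from the RNA, as the study's methods state.

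A cell that divides first licenses its replication origins and copies its DNA in S phase, then condenses and separates its chromosomes in mitosis. Genes of the replication step peak around the G1/S boundary and are classical E2F targets, whereas many genes of the mitotic step peak in G2 and M phase and carry a cell cycle homology region (CHR) together with CCAAT boxes in their promoters. In blood most white cells are not dividing, and reticulocytes, the youngest circulating red cells, have lost the nucleus but still hold RNA.

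The promoters of 4 members are printed to show the motifs by which the mitotic and the replication genes differ. Each is the 250 bases before the transcription start in RefSeq (GRCm38.p6), 5′ to 3′ on the gene's strand. Capitals mark matches, on either strand, to the CHR (TTTGAA), the CCAAT box (CCAAT) or 1 of 4 E2F motifs (TTTCCCGC, TTTGGCGC, TTTCGCGC and TTTGCCGC). Adjoining capitals can hold overlapping matches. Ube2c (chr2:164769679-164769928, plus strand) and Ccnb2 (chr9:70421555-70421804, minus strand) are mitotic genes. Mcm5 (chr8:75109259-75109508, plus strand) and Mcm6 (chr1:128359706-128359955, minus strand) encode subunits of the replicative helicase.
Ube2c: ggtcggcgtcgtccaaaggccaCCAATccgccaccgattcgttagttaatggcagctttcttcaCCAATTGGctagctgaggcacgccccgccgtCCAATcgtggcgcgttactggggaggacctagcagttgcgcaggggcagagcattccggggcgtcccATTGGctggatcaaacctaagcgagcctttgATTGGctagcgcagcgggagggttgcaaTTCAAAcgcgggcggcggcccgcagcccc
Ccnb2: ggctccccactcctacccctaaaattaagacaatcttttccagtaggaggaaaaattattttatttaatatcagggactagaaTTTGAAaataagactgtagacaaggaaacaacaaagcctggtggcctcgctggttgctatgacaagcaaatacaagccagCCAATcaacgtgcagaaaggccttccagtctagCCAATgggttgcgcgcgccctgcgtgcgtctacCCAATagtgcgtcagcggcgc
Mcm5: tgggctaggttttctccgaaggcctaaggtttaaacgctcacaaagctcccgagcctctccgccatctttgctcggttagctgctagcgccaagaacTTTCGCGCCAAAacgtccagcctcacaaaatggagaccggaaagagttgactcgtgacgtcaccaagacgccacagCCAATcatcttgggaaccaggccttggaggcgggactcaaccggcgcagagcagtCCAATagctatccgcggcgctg
Mcm6: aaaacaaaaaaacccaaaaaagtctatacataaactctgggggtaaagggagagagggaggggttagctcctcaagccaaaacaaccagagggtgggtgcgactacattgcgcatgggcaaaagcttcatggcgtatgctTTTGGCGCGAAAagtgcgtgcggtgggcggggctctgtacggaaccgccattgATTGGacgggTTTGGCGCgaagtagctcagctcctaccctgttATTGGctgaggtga

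The Ube2c promoter held a CHR 29 to 24 bases before the start and 6 CCAAT boxes, 2 of them overlapping, and the Ccnb2 promoter held a CHR and 3 CCAAT boxes. The Mcm5 promoter held a pair of overlapping E2F matches and 2 CCAAT boxes, and the Mcm6 promoter held 3 E2F matches and 2 CCAAT boxes, with no CHR in either.

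The same letters were counted in windows of 300 bases (250 before to 50 after the start), which the RefSeq table gave for 39 of the 47 members. Of 25 mitotic genes with a window, 19 (76.0%) held a CHR, against 1 of 11 replication genes (9.09%) and 20.2% of 27025 genes in the table. The E2F motifs stood in 6 of 11 replication genes (54.5%), in 2 of 25 mitotic genes (8.0%) and in 2.6% of all genes. CCAAT boxes stood in 84.0% of the mitotic and 63.6% of the replication genes, against 41.1% of all genes. None of the 3 motifs stood in the windows of the 3 regulators that had one. These matches describe the letters of the windows and say nothing about factor binding in these mice. No window was given for Tpx2, Kif20a, Mcm4, Ccne2, Foxm1, Aurkb, Ccna2 and Gins1.

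**Figure D1:**
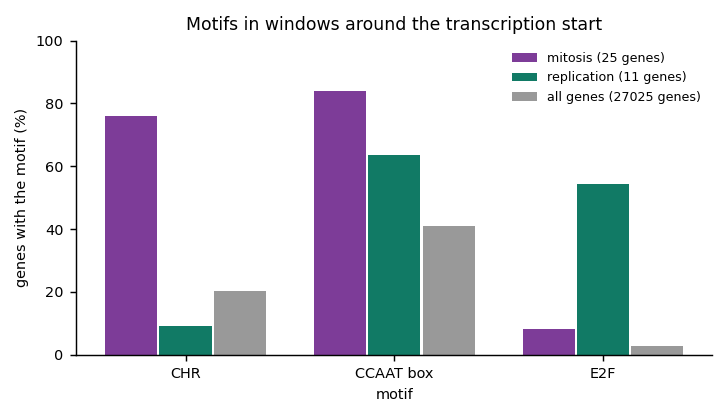
Share of genes (y axis, %) whose promoter window held each motif (x axis), for 25 mitotic genes, 11 replication genes and all 27025 genes with a window. CHR stood in 76.0% of mitotic and 9.09% of replication genes, and E2F motifs in 8.0% and 54.5%.

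Levels are given on a log2 scale relative to the median of all spots of the same array, so that 0 is the signal of the middle spot, and levels of different genes are not compared because each rests on its own probe. Of the 47 members, 38 passed the filter on dim probes (22 of 29 mitotic genes, 12 of 13 replication genes and 4 of 5 regulators). The other 9 were too dim: Aurkb, Cenpf, Ttk and Ccne2 had signal in 1 to 3 of 24 arrays, Ncapg in 8, Kif4 in 14, Kif2c in at most 17, and Bub1 and Cdc6 in 18. Mcm6 and E2f1 then varied too little over the 24 arrays for a further filter on 1.5-fold changes, which left 36 members among 17472 genes in the tests. Calls come from limma's moderated test, two-sided, and required p under 0.005 together with an adjusted p (Benjamini-Hochberg, over all 17472 genes) under 0.05.

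Several arrays stood apart before any comparison. The arrays of old irradiated mice 4 and 6 had the lowest median signals of the 24, 8.66 and 8.84 units against 14.4 to 44.8 in the others, and the mean level of 17 erythroid markers was 6.98 and 7.02 there against 3.24 to 4.33 in the other 4 old irradiated mice and 4.70 to 6.06 in old unirradiated mice. Hepatocyte transcripts were high in young irradiated mice 2, 4 and 5 (mean level 9.76 to 11) and old irradiated mice 2, 3 and 5 (9.31 to 10.2), against 0.214 to 6.8 in the unirradiated groups. Some arrays of a group also lay close together. Over 196 probes printed in repeat, old irradiated mice 4 and 6 differed by 1.63 times the spread of repeat spots, against 4.82 to 12.3 times for the other pairs of that group. The ratio was 1.36 for old unirradiated mice 1 and 6 (3.01 to 7.05 for the other pairs). It was 1.17 for young irradiated mice 1 and 6 and 1.36 for young irradiated mice 2 and 5 (2.1 to 9.64 for the others). Young unirradiated mice 2 and 6 stood at 1.82, close to the lowest of the other pairs of that group (2.1 to 4.28). No pair fell within the repeat-spot spread. Repeat spots share 1 array, however, so a ratio above 1 cannot show that arrays came from separate mice. The labels give each as a sample of its own, but whether these pairs are fully separate was not tested. With each pair counted as 1 sample, a choice made after seeing the data, 12 members were called in irradiated young mice, 9 in irradiated old mice and 7 for age. Counts under this and later alternatives are given without the share of all genes called, except the old comparison without irradiated mice 4 and 6. Such counts have no background to be read against.

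The young arrays shared 1 scan day and the old arrays another, so age and scan day cannot be told apart. Slides also followed dose in part. At each age 1 slide held only unirradiated mice, 1 only irradiated mice and 1 held 2 of each. Blood cell markers (Alas2 and Slc4a1 of red cells, Cd79a of B cells, Cd3e of T cells and S100a8 of neutrophils) were well above background on all 24 arrays. No source used here states that the 6 mice of a group came from separate litters or cages, so p-values measure the spread between these mice.

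**Figure D2:**
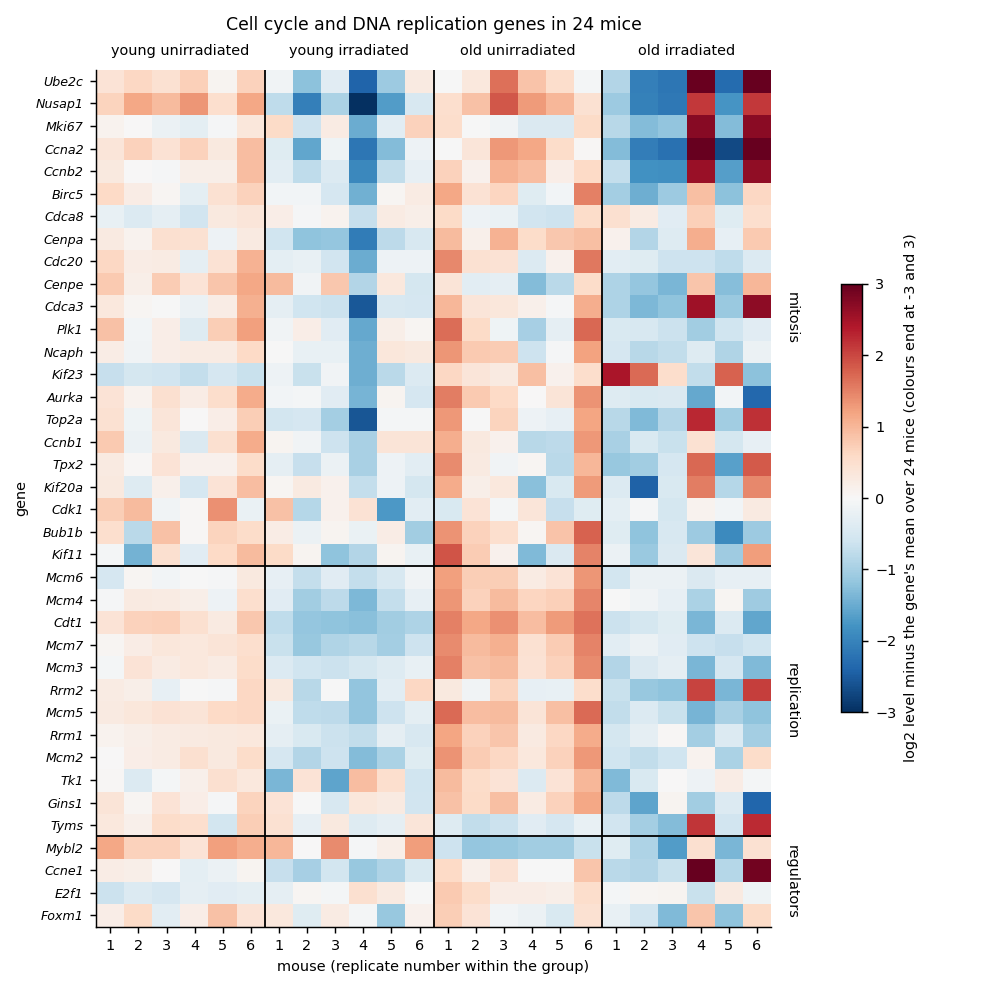
Level of 38 members (rows, ordered by role) in 24 mice (columns, by group), each as the log2 level minus the gene's own mean over the 24 mice, with colours ending at -3 and 3. Old irradiated mice 4 and 6 are high in most mitotic genes, whereas the replication genes are low in most irradiated mice of both ages.

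In young mice, 15 of the 36 tested members were lower 24 h after 4 Gy and 0 were higher (limma; 18 lower and 0 higher at an unadjusted p below 0.05). Over all genes 21.4% were called lower and 14.4% higher, so the 41.7% of members called lower lay above the share of all genes in that direction. The median difference of the members was -0.69 on the log2 scale, against -0.20 over all genes, and 33 of 36 members lay below that all-gene median. Of the replication genes 7 of 11 fell (63.6%), of the mitotic genes 7 of 22 (31.8%) and of the regulators 1 of 3. The lower groups did not overlap with their controls for 15 members, against 15.4% of all genes, and no higher group was separate in this way (9.58% of all genes).

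The mitotic genes that fell were Ube2c, Nusap1, Ccna2, Ccnb2, Cenpa, Aurka and Tpx2. Nusap1, which encodes a protein that bundles spindle microtubules, ranged from 6.81 to 7.64 (median 7.37) in unirradiated young mice and from 3.24 to 5.84 (median 4.99) in irradiated ones. No irradiated mouse reached the unirradiated range, and the difference of -2.46 ± 0.38 (SE, n = 6 and 6; adjusted p = 0.00024) made Nusap1 the member with the largest fall, 5.49-fold. Ccna2, the cyclin of S and G2 phase, went from 4.77 to 5.4 (median 5.02) to 2.29 to 4.33 (median 3.64), again without overlap, a difference of -1.52 ± 0.33 (adjusted p = 0.00243). Ube2c, the ubiquitin-conjugating enzyme that works with the anaphase-promoting complex, stood at 8.63 to 9.26 (median 9.08) and 6.13 to 8.8 (median 7.82). Its groups overlapped in 1 irradiated mouse, number 6, and its difference was -1.32 ± 0.37 (adjusted p = 0.0103). The other 4 fell by 0.68 (Tpx2, the activator of Aurora A) to 1.29 (Cenpa, the centromeric histone H3 variant) on the log2 scale.

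The remaining 15 mitotic genes did not pass the test. Mki67, the proliferation antigen Ki-67, was at 4.29 to 4.92 (median 4.56) in unirradiated and 3.09 to 5.27 (median 4.53) in irradiated young mice, a difference of -0.15 ± 0.32 (adjusted p = 0.74). Its irradiated mice lay on both sides of the unirradiated range. Kif23, a kinesin of the central spindle, differed by 0.01 ± 0.21 and Bub1b, the spindle checkpoint kinase BubR1, by -0.46 ± 0.30. Cdk1, the kinase of the mitotic cyclins, was well above background in 11 of 24 arrays on the probe used and in 15 on its other probe, and the 2 differed in old mice (0.04 and -1.22 after irradiation). The spindle motor Kif11 was well above background in 6 arrays, none of them of old irradiated mice. Cdca3 did not overlap between the groups (1.71 to 2.97 against -0.648 to 1.62) but missed the p threshold with -1.08 ± 0.36 (adjusted p = 0.0235).

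Among the replication genes, Cdt1, which loads the helicase onto origins, fell furthest. It was at 5.16 to 5.69 (median 5.49) in unirradiated and 3.63 to 4.12 (median 3.79) in irradiated young mice, with a gap of over 1 log2 unit between the groups. Its difference was -1.62 ± 0.14 (adjusted p = 4.99e-06), a 3.08-fold fall. The helicase subunits Mcm2, Mcm3, Mcm4, Mcm5 and Mcm7 fell by 0.75 to 1.17 on the log2 scale, each with groups that did not overlap. Mcm7 was at 4.5 to 4.93 (median 4.76) and 3.3 to 3.8 (median 3.56), a difference of -1.17 ± 0.13 (adjusted p = 3.06e-05). Mcm4 was at 4.8 to 5.45 (median 5.16) and 3.59 to 4.71 (median 4.18), a difference of -0.92 ± 0.20 (adjusted p = 0.00242). Rrm1, the large subunit of ribonucleotide reductase, fell by 0.71. Its partner Rrm2 (-0.36 ± 0.29), the thymidylate enzymes Tyms (-0.25 ± 0.24) and Tk1 (-0.38 ± 0.40) and the helicase activator subunit Gins1 (-0.29 ± 0.21) did not pass the test.

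Of the regulators, Ccne1, the G1/S cyclin, fell from 3.2 to 3.7 (median 3.53) to 2.36 to 3.03 (median 2.68), a difference of -0.80 ± 0.16 (adjusted p = 0.00118). The transcription factors Mybl2 (-0.25 ± 0.28) and Foxm1 (-0.46 ± 0.26) did not pass the test. E2f1 was not among the 17472 genes. When the 1.5-fold filter was not applied it was called higher in irradiated young mice, by 0.49 ± 0.14 (0.886 to 1.27 against 1.26 to 2; adjusted p = 0.0146) in that fit, whereas no tested member was called higher in young mice. Mcm6 had -0.39 ± 0.16 in that fit (adjusted p = 0.0664).

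Exact permutation tests over the 924 splits of 6 against 6 mice, two-sided, gave the smallest p they can give, 0.00216, for Nusap1, Ccna2, Cdt1, Mcm4, Mcm5, Mcm7 and Ccne1, and 0.00433 for Ube2c. Groups that do not overlap always give this smallest p, so it only restates the ranges above. All 15 called members were lower also within the slide that held 2 mice of each group, by a median of 1.06 on the log2 scale (values from -2.22 to -0.66). These mice also entered the calls, and for members whose groups did not overlap the sign within the slide was fixed in advance. Leaving out 1 mouse at a time, 12 of the 15 kept their call in all 12 fits, whereas Ube2c kept it in 5, Ccnb2 in 6 and Aurka in 3. Without the 3 irradiated mice with high hepatocyte transcripts, 11 members were called, all lower and 10 of them among the 15. Of Tpx2's 2 probes, the second, well above background in 18 of 24 arrays, differed by 0.06. With the 75th percentile, the median of well-measured probes, quantile normalization and the authors' own log2 table, 11 to 16 members were called, all lower. No member passed with the normexp correction and none with only the slide that holds both groups, and one fit of all 24 arrays called 9. The shares of all genes called under these alternatives are not given here.

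Blood cell markers moved in the same comparison, and their part in the result was not tested. All 8 of 8 B cell markers were called lower (median -2.40; mean level 5.53 to 5.95 in unirradiated and 2.72 to 3.69 in irradiated mice, log2 of their summed level 10.6 to 10.9 and 7.65 to 9.18). For T cells 7 of 8 were lower (median -1.32; mean level 6.20 to 6.73 and 4.26 to 5.94, summed level 9.38 to 10.1 and 8.42 to 9.63). Of 16 erythroid markers 9 were lower and 3 higher (median -1.24; mean level of 17 markers 4.86 to 5.4 and 3.27 to 4.91, summed level 13.7 to 14.8 and 13.2 to 14.8). Other lists were higher in irradiated young mice: 5 of 5 platelet markers (median 1.65), 3 of 5 natural killer cell markers (1.61), 3 of 7 mature neutrophil markers (1.28) and 3 of 6 stem and progenitor markers (1.29). No defining marker of the lymphocyte and erythroid lists (Cd79a, Cd79b, Ms4a1; Cd3d, Cd3e, Lck; Alas2, Slc4a1) was absent in any group. In whole blood, fewer cells of a type and less RNA per cell cannot be told apart. Irradiated mouse 4 had the lowest mean of the mitotic genes (0.769, against 1.71 to 2.2 in the other 5) and the lowest erythroid mean (3.27).

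**Figure D3:**
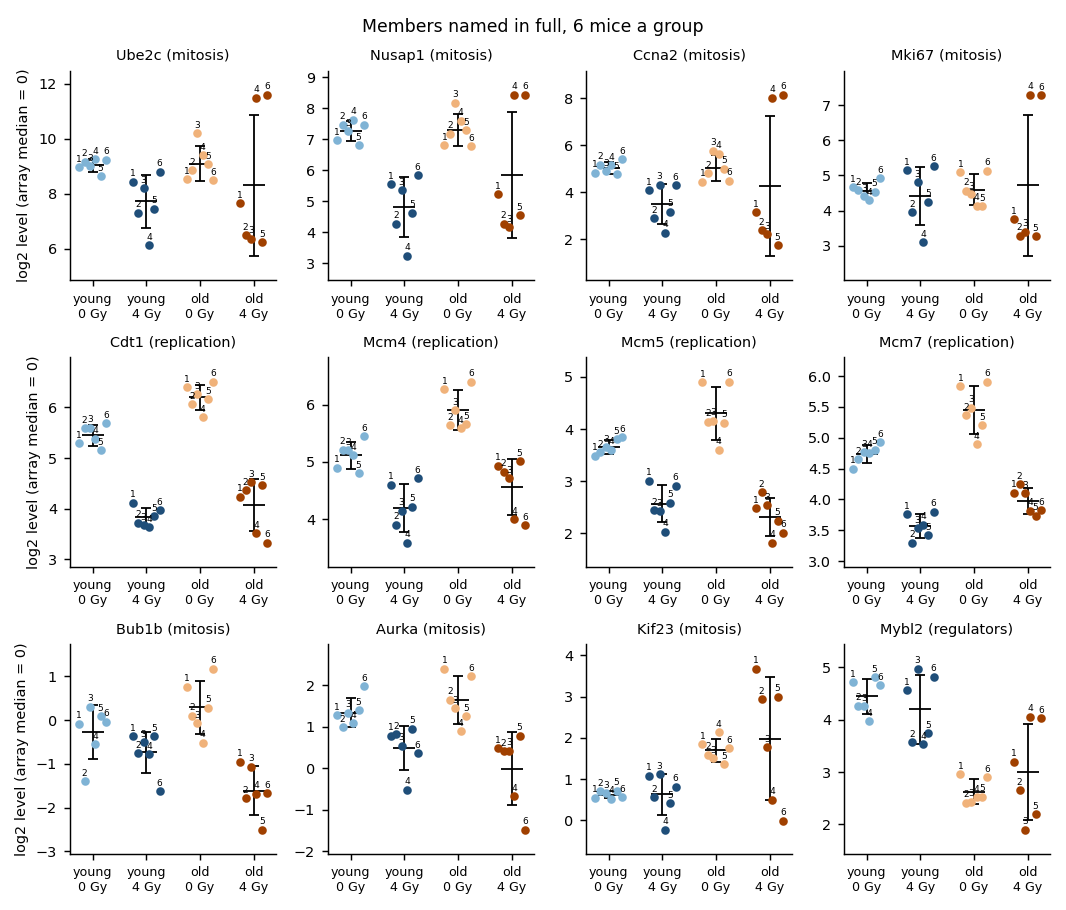
Log2 level (y axis, array median at 0) of selected members, as 1 point per mouse in the 4 groups (x axis), with the group mean and SD. The members are Ube2c, Nusap1, Ccna2, Mki67, Cdt1, Mcm4, Mcm5, Mcm7, Bub1b, Aurka, Kif23 and Mybl2. The irradiated points of Cdt1, Mcm4, Mcm5 and Mcm7 lie below all unirradiated points of the same age. The points of 2 old irradiated mice stand high for Ube2c, Nusap1, Ccna2 and Mki67.

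In old mice, 12 of the 36 members were lower after irradiation and 0 were higher, and 8 of the 12 were replication genes (15 lower and 0 higher at an unadjusted p below 0.05). Over all genes 17.4% were called lower and 7.6% higher, against 33.3% of the members called lower. The median difference of the members was -0.74, against -0.25 over all genes, and 27 of 36 lay below the all-gene median. Of the replication genes 8 of 11 fell (72.7%), of the mitotic genes 4 of 22 (18.2%) and of the regulators 0 of 3. The mitotic share thus lay near the 17.4% of all genes. Groups did not overlap for 9 members, all lower, against 16.8% of all genes in that direction and 5.92% in the other. Other scalings moved the all-gene median from -0.25 to as high as 0.34, and the members' median then stood at -0.39. With the 75th percentile, the median of well-measured probes, quantile normalization and the authors' log2 table, 8 to 10 members were called, all lower, and all 12 kept their sign, whereas the normexp correction gave 0 calls. The shares of all genes called under these scalings are not given here.

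The largest fall was that of Cdt1. It was at 5.81 to 6.51 (median 6.21) in unirradiated and 3.33 to 4.52 (median 4.3) in irradiated old mice, a difference of -2.13 ± 0.27 (adjusted p = 0.000319) or 4.37-fold. Mcm5 was at 3.6 to 4.91 (median 4.15) and 1.82 to 2.79 (median 2.36), a difference of -1.99 ± 0.29 (adjusted p = 0.00055). Neither gene's groups overlapped. Mcm7 differed by -1.48 ± 0.24, Mcm4 by -1.35 ± 0.28, Mcm3 by -1.78 ± 0.29, Rrm1 by -1.32 ± 0.26 and Mcm2 by -1.22 ± 0.31. Gins1, a subunit of the complex that activates the helicase, was at 1.02 to 1.92 (median 1.55) and -1.6 to 0.864 (median -0.137), a difference of -1.75 ± 0.37 (adjusted p = 0.00408). Only 3 of 6 irradiated mice had Gins1 signal well above background, so that its level in the others is poorly measured. Mcm6, outside the 17472 genes, was lower by -1.08 ± 0.23 (adjusted p = 0.00441) when the 1.5-fold filter was not applied, and E2f1 differed by -0.48 ± 0.22 (adjusted p = 0.109).

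The mitotic genes called lower, a share near that of all genes, were Bub1b, Aurka, Ncaph and Cdc20. Bub1b was at -0.517 to 1.18 (median 0.193) and -2.5 to -0.95 (median -1.68), a difference of -1.90 ± 0.34 (adjusted p = 0.00184), but was well above background in 1 of 6 irradiated mice. Aurka, the spindle pole kinase, was at 0.885 to 2.4 and -1.48 to 0.781 without overlap, a difference of -1.65 ± 0.41. Ncaph, a condensin subunit (-1.17 ± 0.34), and Cdc20, the activator of the anaphase-promoting complex (-1.13 ± 0.33), overlapped with their controls, and leaving out 1 mouse at a time kept their calls in only 3 and 2 of 12 fits. The other 10 called members kept theirs in all 12.

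The other mitotic genes were split by old irradiated mice 4 and 6. Ccna2 was at 3.16, 2.40, 2.22, 8.02, 1.75 and 8.14 in old irradiated mice 1 to 6, against 4.45 to 5.77 (median 4.92) in unirradiated ones. Mice 4 and 6 thus lay above every unirradiated old mouse and the other 4 below all of them, while the difference of the means was -0.75 ± 1.08 (adjusted p = 0.61). Ube2c was at 7.65, 6.49, 6.36, 11.5, 6.23 and 11.6, against 8.49 to 10.2. Nusap1 was at 5.22, 4.28, 4.16, 8.44, 4.55 and 8.44, against 6.77 to 8.18. Both showed the same split as Ccna2, with differences of -0.80 ± 0.95 and -1.46 ± 0.76 that did not pass the test. Mki67 was at 3.75, 3.28, 3.40, 7.30, 3.27 and 7.29, against 4.13 to 5.14, with a difference of 0.13 ± 0.75.

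Of the 22 mitotic genes, 17 were higher in both of these mice than in the other 4, and 10 of the 17 were also above all old unirradiated mice. The share of all genes split in this way was not counted. The mean of 46 other mitotic genes, read further below, was 1.68 and 1.81 in mice 4 and 6. That lies within the range of the other 4 (1.23 to 1.86). The log2 of their summed level was higher, 12.6 and 12.7 against 9.83 to 10.8. Among the 22 members, the split had few exceptions in the other direction. Of these members only Aurka and Kif23 were lower in both mice. Of the 12 replication genes, Mcm2, Rrm2 and Tyms were higher in both and Mcm3, Mcm4, Mcm5, Cdt1 and Rrm1 lower in both, with 4 between. Ccne1, Foxm1 and Mybl2 were higher and E2f1 lower. Ccne1 was at 6.55 and 6.39 in mice 4 and 6 and 2.61 to 2.82 in the others on its brighter probe, whereas its second probe, not well above background in any old irradiated mouse, gave -2.04 and -1.43 against -2.68 to -0.761. For Ube2c and Mki67 the second probe gave the same split (10.9 and 10.9 against 5.69 to 7.16, and 6.91 and 6.85 against 3.13 to 4.09). The second probes of 3 other genes counted as higher did not: Cdca8 was at 0.0861 and -0.862 in mice 4 and 6 against -0.385 to 1.02 on it, Cdk1 at -2.45 and -1.62 against -1.8 to -1.15, and Mybl2 at -2.22 and 0.0596 against -2.07 to -1.15. These were the mice with the high erythroid markers and the low median signal given above, and the part of either in the split was not tested.

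Without mice 4 and 6, a choice made after seeing the data, 23 members were called lower and 1 higher, with 22.8% of all genes lower and 11.9% higher (34.7% either way). By role, 13 of 22 mitotic genes fell, 9 of 11 replication genes and 1 of 3 regulators, with medians of -1.20, -1.40 and -0.98. Nusap1 then differed by -2.75 ± 0.31 (adjusted p = 0.000132, 6.75-fold), Ccna2 by -2.65 ± 0.34, Ube2c by -2.42 ± 0.38 and Ccnb2 by -2.11 ± 0.27. Mki67 and Ccne1 turned to -1.16 ± 0.24 and -1.14 ± 0.20 and were called. Kif23 was the member called higher, with 1.15 ± 0.32 (adjusted p = 0.0118). It was at 3.68, 2.94, 1.77 and 3 in mice 1, 2, 3 and 5, 0.503 and -0.00703 in mice 4 and 6, and 1.36 to 2.14 in unirradiated old mice. Cdt1 (-1.80 ± 0.17) and Mcm5 (-1.79 ± 0.27) changed little, and 11 of the 12 calls over 6 mice were kept, Cdc20 being the exception.

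The difference between the mitotic and the replication mean of each array, which a constant scaling of the array cannot move, separated the same 2 mice. It was -1.06, -1.62, -1.70 and -1.68 in old irradiated mice 1, 2, 3 and 5, 0.0788 and 0.123 in mice 4 and 6, and -1.81 to -1.38 in old unirradiated mice. The group means were -0.98 ± 0.87 and -1.52 ± 0.15 (SD, n = 6 each), and their difference of 0.54 came to 0.000672 without mice 4 and 6. In young mice the means were -1.18 ± 0.22 and -1.19 ± 0.40. The mean of the 12 replication genes was 2.8 to 3.1 in old irradiated and 3.68 to 4.6 in old unirradiated mice, and 2.75 to 3.15 and 3.54 to 3.98 in young ones. At each age these ranges did not overlap. Mice 4 and 6, at 3.1 and 3.06, had the highest replication means of the old irradiated group (2.8 to 3.02 in the other 4), still below every unirradiated old mouse.

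**Figure D4:**
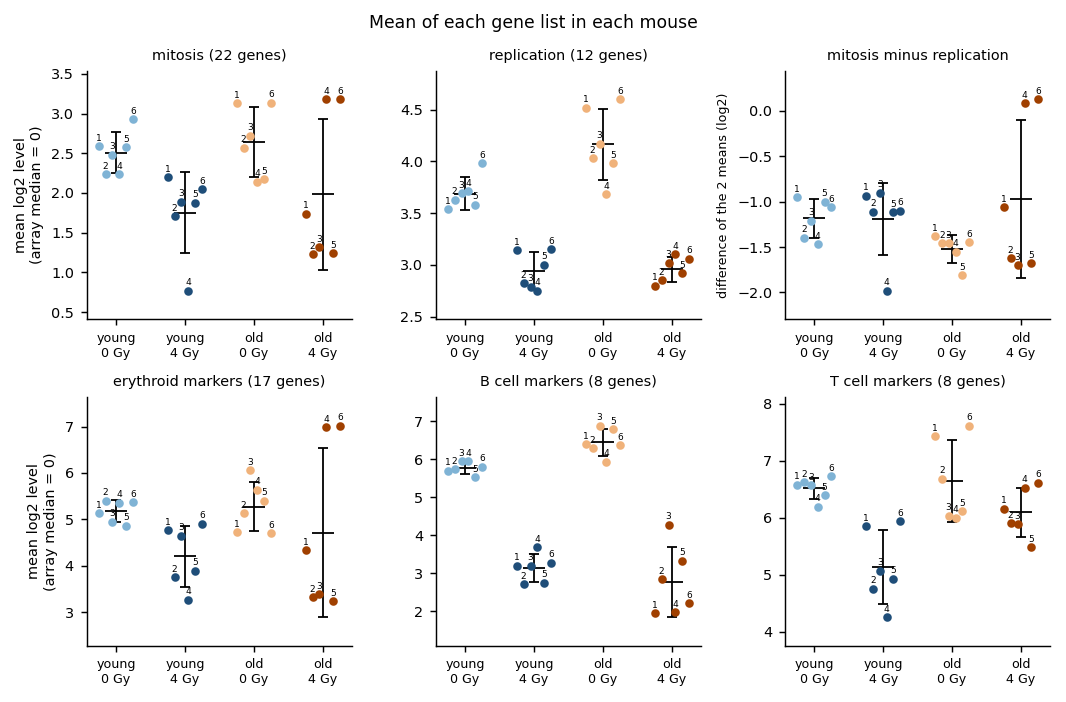
Mean log2 level of gene lists in each mouse (y axis; array median at 0) in the 4 groups (x axis), with the group mean and SD, and the mitotic mean minus the replication mean (log2). Old irradiated mice 4 and 6 stand above all old unirradiated mice for erythroid markers (6.98 and 7.02) and highest of all for mitotic genes (3.18 each), while their replication means (3.1 and 3.06) lie below all old unirradiated mice.

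Exact permutation tests gave 0.00216, the smallest possible p, for Cdt1, Mcm4, Mcm5, Mcm7 and Bub1b in old mice, against 0.565 for Ccna2 and 0.474 for Ube2c. The smallest p again only restates that the groups of these 5 genes did not overlap. Within the slide that held 2 mice of each group, all 12 called members were lower, by a median of 1.52 on the log2 scale (values from -2.10 to -1.15). Here too the sign was fixed in advance for members whose groups did not overlap. Without the 3 irradiated mice with high hepatocyte transcripts, 9 members were called lower and Mybl2 higher, by 1.14. That fit leaves irradiated mice 1, 4 and 6, and thus rests largely on the pair that stood apart. Its share of all genes called is not given here. B cell markers were lower for 7 of 8 (median -3.84; mean level 5.93 to 6.88 in unirradiated and 1.95 to 4.28 in irradiated old mice, log2 of the summed level 10.8 to 11.8 and 5.78 to 9.77). In limma 0 of 8 T cell markers were called, with 3 lower at an unadjusted p below 0.05 (median -0.71; mean level 6.00 to 7.62 and 5.49 to 6.62, summed level 9.39 to 11.2 and 8.96 to 9.98). Of 16 erythroid markers 0 were called lower and 2 higher (median -0.78), and of 4 monocyte markers 2 lower and 1 higher. All 5 platelet (median 1.88) and all 6 hepatocyte markers (6.26) were higher. Of 6 stem and progenitor markers 1 was lower and 1 higher. Among 7 mature neutrophil and 5 natural killer cell markers 0 were called. The part of any of these lists in the members' falls was not tested. Old unirradiated mice 1 and 6, the close pair of that group, had the highest T cell means (7.43 and 7.62). In both, 15 of 22 mitotic and 9 of 12 replication genes were higher than in the other 4, and 3 mitotic genes were lower. The share of all genes that set this pair apart was not counted, so these counts have no background to be read against.

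Both ages thus had calls for the same 8 members, Mcm2, Mcm3, Mcm4, Mcm5, Mcm7, Cdt1, Rrm1 and Aurka, 53.3% of the young and 66.7% of the old calls. The overlap of the calls over all genes was not counted, so these shares have no background to be read against. The age by radiation interaction, the direct test of whether a response differed between the ages, called 0 members and 0 of 17472 genes in limma. At an unadjusted p below 0.05 it gave 5 of 36 members, against 23.6% of all genes. The lowest adjusted p-values were 0.117 for Gins1 (-1.46 ± 0.43, a more negative difference in old mice) and Mcm3 (-1.03 ± 0.31), 0.128 for Bub1b (-1.44 ± 0.46) and 0.136 for Mcm5 (-0.90 ± 0.32). Gins1 and Mcm3 were called when old irradiated mouse 3 was left out. Without mice 2, 3 and 5 of that group, 7 members were called, and without mice 4 and 6 none was. The shares of all genes called in these reduced fits are not given here, so these counts have no background to be read against. The fit with 7 calls rests on old irradiated mice 1, 4 and 6, and mice 4 and 6 are the close pair with the lowest median signals. For Nusap1 the interaction was 0.997 ± 0.895 and for Cdt1 -0.50 ± 0.29, so an age difference of the size of these errors cannot be told from 0.

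**Figure D5:**
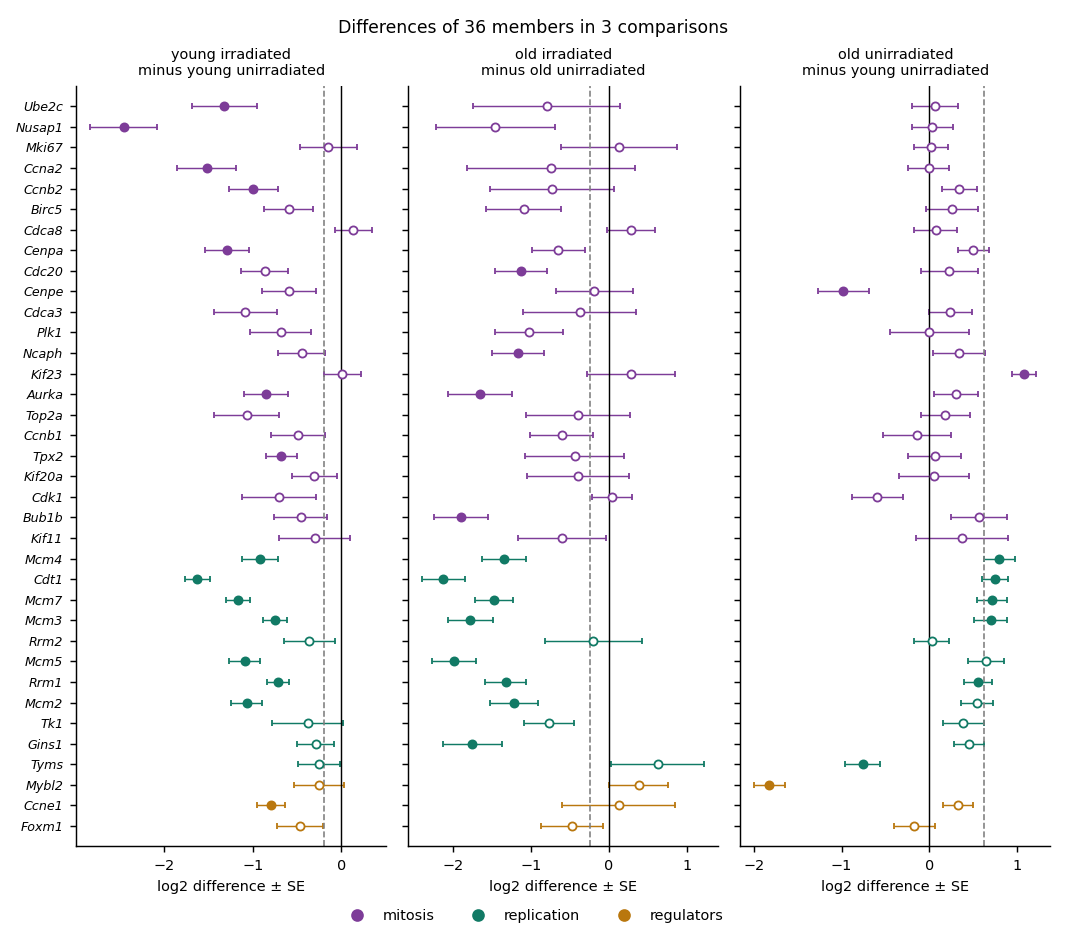
Log2 difference ± SE (x axis) of 36 members (y axis) between irradiated and unirradiated young mice, irradiated and unirradiated old mice, and old and young unirradiated mice. Filled points passed the test, colours give the role and the dashed line is the median of all 17472 genes, at -0.20, -0.25 and 0.63.

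Age alone, in unirradiated mice, gave 9 calls among the 36 members (63.8% of all genes were called). Relative to the array median, 6 members were higher in old mice (Mcm4, Cdt1, Mcm7, Mcm3, Rrm1 and Kif23) and 3 lower (Mybl2, Cenpe and Tyms). That is 16.7% and 8.33%, against 48.2% and 15.5% of all genes. Groups did not overlap for 3 of the higher and 1 of the lower members, against 37.4% and 11.3% of all genes. The median of all genes was itself 0.63 higher in old mice at this scaling, and the members' median 0.25. With each array scaled to its 75th percentile the all-gene median was -0.02, and 1 member was called higher and 4 lower. With quantile normalization it was 0.11, and the members split into 1 and 3. With the median of well-measured probes it was -0.11, with 0 and 4, and it was 0.02 in the log2 values that the authors deposited, with 0 and 6. The rises of the replication genes thus stood in the scaling to the array median and in none of these 4. Mcm4 (0.80 ± 0.18), Cdt1 (0.75 ± 0.15) and Mcm7 (0.71 ± 0.17) lay 0.17, 0.12 and 0.09 above the all-gene median there.

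Mybl2, which encodes the transcription factor B-Myb, showed the largest difference. It was at 3.97 to 4.81 (median 4.47) in young and 2.41 to 2.96 (median 2.52) in old unirradiated mice, without overlap. Its exact permutation p, 0.00216, only restates the lack of overlap. Its difference was -1.82 ± 0.17 (adjusted p = 3.35e-06), 3.54-fold lower in old mice, and it was called lower under 25 of 26 alternatives. This rests on 1 of its 2 probes: the second, well above background in 6 of 24 arrays, differed by 0.44. Kif23 was at 0.52 to 0.721 (median 0.609) in young and 1.36 to 2.14 (median 1.67) in old mice, a difference of 1.08 ± 0.14 (adjusted p = 3.14e-05). It was 0.49 ± 0.16, no longer called, with the median of well-measured probes, and 4 of 26 alternatives ended its call. Cenpe, a kinetochore kinesin, differed by -0.98 ± 0.29 and Tyms by -0.76 ± 0.20. Leaving out 1 mouse at a time kept the calls of Cenpe in 3, Rrm1 in 4, and Mcm3 and Tyms in 7 of 12 fits, and those of the other 5 in all 12. Mki67 (0.02 ± 0.20), Ccna2 (-0.01 ± 0.24), Nusap1 (0.04 ± 0.24) and Ube2c (0.06 ± 0.26) had nearly equal means, which relative to the all-gene median put them 0.56 to 0.63 lower in old mice. Without young unirradiated mouse 3, only 5 members were called, 4 higher and 1 lower. Scan day changed together with age in this comparison. Cell type markers were read at the same scaling, where 48.2% of all genes were called higher and 15.5% lower. In old mice 7 of 7 mature neutrophil (median 1.96), 4 of 4 monocyte, 4 of 5 platelet and 4 of 6 stem and progenitor markers were higher. B cell markers, with 4 of 8 higher and a median of 0.68, lay near the share and the median of all genes. Of 6 hepatocyte markers 3 were lower. The part of these lists in the members' differences was not tested.

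Other genes of the same processes, listed by textbook role with earlier results of these data known, were read against the members. Of 39 other replication genes, 19 were lower and 2 higher in irradiated young mice (median -0.68), and 21 lower and 2 higher in old mice (median -1.18). The lower shares were 48.7% and 53.8%, against 21.4% and 17.4% of all genes. Rpa1, the large subunit of the single-strand binding protein RPA, fell by 1.06 in young and 1.32 in old mice. Gins3, a partner of Gins1, fell by 1.01 in young mice, and DNA ligase Lig1 differed by -1.03 ± 0.36 there without passing the test. Of 43 other mitotic genes, 10 were lower and 3 higher in young mice (median -0.29), and 8 and 2 in old mice (median -0.58), with lower shares of 23.3% and 18.6% near those of all genes. The phosphatase gene Cdc25b fell by 1.91 in young mice, whereas securin (Pttg1) differed by -0.76 ± 0.24 and did not pass. Of 22 genes of G1 control and the DREAM complex, 8 were lower and 2 higher in young mice, and 7 and 2 in old mice, with lower shares of 36.4% and 31.8%. E2f2 fell by 1.53 and Tfdp2 by 1.77 in young mice, while cyclin D3 (Ccnd3) rose by 1.29 in young mice and was also called higher in old mice.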

How the data were processed

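Blood RNA was collected in PAXgene tubes, and the authors hybridized Cy3-labelled cRNA of each mouse to an Agilent mouse 4x44K array. The deposited scanner files hold the processed signal intensity of each spot from Agilent Feature Extraction 12.0.2, background-corrected. A deposited table of log2 values, scaled by the authors, served only as an alternative. The members and gene lists were chosen with earlier results of these data known. Here log2 intensity had non-uniform spots removed and the median of 43020 non-control spots of its array subtracted (R 4.3.3, limma 3.58.1). Probes flagged as non-uniform, or without positive significant signal, in 25% or more of 24 arrays were dropped, which left 24130 of 39429. The brightest probe stood for each gene. Genes 1.5-fold from their median in 20% or more of the arrays (17472) were tested in limma on the 12 arrays of each comparison, and on all 24 for the interaction, without covariates. Full values are given for the 3 brightest tested members of each role and the 3 largest called falls and rises without overlap. Simulated data tested the scripts. The number of arrays limits precision. Promoters and motifs were read from RefSeq tables with Python 3.11.15. Alternatives covered scaling, filters, the test, slides, the replicate block and mice left out.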

Additional observations from a re-analysis of the deposited data

Results flagged for a closer look

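In 68 groups of 6 mice tested by Dixon's rule, at which chance marks about 1 in 20, 3 values lay far from the rest of their group, all in irradiated young mice. Bub1b was at -1.63 in mouse 6, with the nearest value at -0.783. The mean of the 22 mitotic genes was 0.769 in mouse 4, with the nearest at 1.71, and the mitotic minus the replication mean was -1.98 there, with the nearest at -1.12. Without mouse 4, 16 members were called lower in young mice.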

How the results depend on the processing

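The normexp correction with an offset of 50, above the median signal of every array (8.66 to 44.8), left 0 calls in each comparison of groups (24 members tested), with all called members measured there keeping their sign (13 of 13, 8 of 8 and 8 of 8). Old against young fell from 9 calls to 5 with the 75th percentile, 4 with the median of well-measured probes, 4 with quantile normalization and 5 in one fit of all 24 arrays. That fit called 9 members in young mice. With only the slide that holds both groups, the young comparison had 0 called members and the old 7. Without old irradiated mice 4 and 6, 24 were called in old mice, with Mki67 at -1.16 and Ccne1 at -1.14. Without mice 2, 3 and 5 of that group, which leaves mice 1, 4 and 6, the interaction called 7 members. The mitotic minus replication difference was then 1.23. In the authors' log2 table Mki67 was lower in old mice (-0.69). Leaving out 1 mouse at a time gave 12 to 16 calls in young mice, 10 to 12 in old mice, 5 to 11 for age and 0 to 2 for the interaction, and mitotic minus replication differences of -0.0667 to 0.149, 0.32 to 0.685 and -0.392 to -0.276. The close pairs named above, counted as 1 sample each, gave 12, 9, 7 and 0 calls. The counts of this section are given without the share of all genes called in the same fit.

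Replicate numbers did not pair the mice (correlations of same-numbered mice from -0.286 to 0.336). With the replicate block the calls were 16 in young mice, 10 in old mice, 7 for age and 0 for the interaction, and 1, 3 and 0 of 6 mice correlated best with their own number. Dim signal limits Bub1b, Gins1, Cdk1 and Kif11.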
